A study of Mus musculus with 6 samples.

Results

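The genes described here are 33 markers of the endothelial cells that line the sinusoids and larger vessels of the liver. They were listed by name and found in the deposited table through their Ensembl identifiers. All 33 were found, each in a single row, among 54600 rows in all, and 32 reached 1 TPM in 3 or more of the 6 libraries and were tested. TPM (transcripts per 1000000) is a level per transcript length, expressed as a share of all transcripts in that library. Total liver RNA was sequenced in 3 libraries labelled wild type (WT) and 3 labelled knockout (KO), the KO label standing for loss of HIF-2α in hepatocytes, and every animal had been on a high-fat diet for 16 weeks. HIF-2α, encoded by Epas1, is a transcription factor subunit that is degraded when oxygen is plentiful. The driver of the deletion, the strain, the sex and the age of the mice, and the design of the WT controls, are not given in the sources used here. The question the design poses for these genes is whether endothelial transcripts in the fatty liver differ when HIF-2α is deleted in the neighbouring hepatocytes.

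Liver sinusoidal endothelial cells are thin and perforated, lack a continuous basement membrane, and take up waste macromolecules from blood through scavenger receptors. They also act on neighbouring hepatocytes through secreted factors: Wnt ligands and R-spondin 3 from the endothelium around the central vein maintain the pericentral hepatocyte programme, and bone morphogenetic proteins induce hepcidin, the iron hormone. In chronic fatty liver disease these cells can lose their perforations and take on features of ordinary capillaries, a change known as capillarization.

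The targeted gene did not check the labels. Epas1 was at 23.8, 26.0 and 21.0 TPM under the WT label and at 26.6, 35.1 and 29.4 under the KO label. The KO values were thus the higher ones and did not overlap the others, as in 8.23% of all genes tested (limma adjusted p = 0.993). The value sums all exons and all liver cells, and endothelium is itself a known site of Epas1 expression. The table cannot show whether the deletion took place or whether labels were exchanged, and an exchange would turn every direction given here, so directions below are between labels. Values were compared with limma on log2(TPM + 1), adjusted over all 11440 genes tested, with a threshold of 0.05. Whether the libraries came from separate animals is not stated, so a p-value reflects the spread among these libraries, which may be technical. As deposited, the median difference of all genes tested was +0.09 (KO minus WT, log2), and median-ratio scaling, which equates the typical gene between libraries, shifted that median by -0.11, to -0.01.

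No endothelial marker passed the threshold. In limma 0 of 32 tested members were called, against 0.00874% of all genes tested, and the smallest adjusted p among the members was 0.993. Before adjustment 2 members, Stab1 and Lyve1, had a limma p below 0.05, both higher in the libraries labelled KO, which is 6.25% of those tested against 2.76% of all genes in that direction. In the fit that blocks on replicate number the same 2 members had a p below 0.05, against 5.26% of all genes in that direction, so that share was near the background. The median difference of the members was +0.08, close to the +0.09 of all genes. It was above 0 for 25 of 32 members (78.1%), as for 74.5% of all genes. After median-ratio scaling the median was -0.03 and 15 of 32 members (46.9%) were above 0, against 46.4% of all genes. In 5 members every KO value lay above every WT value (15.6%, against 8.23% of all genes), and in 0 members every KO value lay below (against 0.857%). After median-ratio scaling Lyve1 was the 1 member whose KO values all lay above its WT values (3.12%, against 3.05% of all genes). The 95% limma interval of the difference lay within 0.585 in either direction on the log2(TPM + 1) scale for 22 of 32 members, a limit that stands for a wider fold in TPM where a gene is low. It reached beyond that limit for Stab1, Lyve1, Esam, Ramp2, Flt4, Wnt2, Rspo3, Egfl7, Vwf and Sox18. Leaving out 1 library at a time gave 5 to 11 members without overlap in either direction. There were 8 (25.0%) without WT replicate 1, against 24.6% of all genes, 8 (25.0%) without KO replicate 1, against 19.8%, and 11 (34.4%) without KO replicate 3, against 22.7%. In whole tissue, fewer endothelial cells and less RNA per endothelial cell cannot be told apart.

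**Figure D1:**
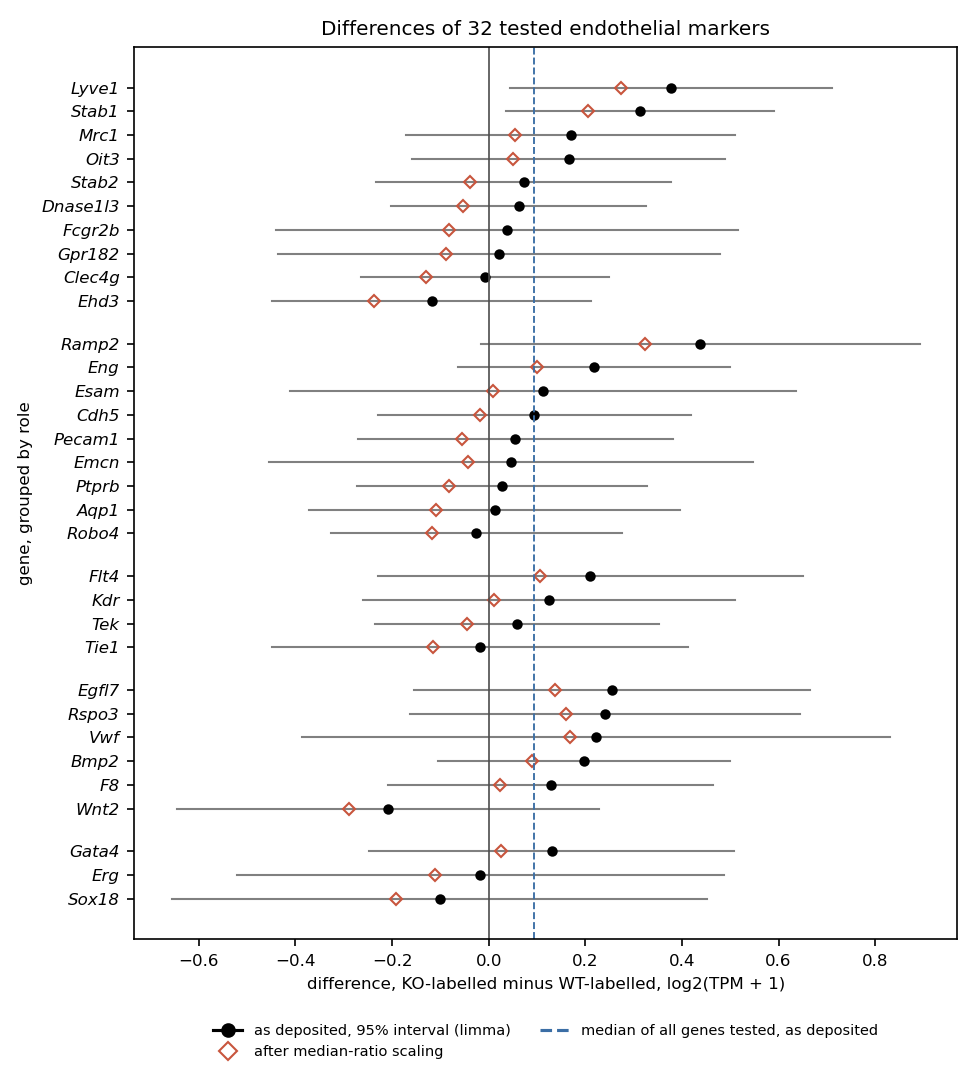
Differences between labels for the 32 tested endothelial markers, on the log2(TPM + 1) scale (horizontal axis), with genes grouped by role (vertical axis). Black points are the values as deposited and grey bars their 95% limma intervals, open diamonds are the values after median-ratio scaling, and the dashed line is the median of all genes tested (+0.09). Most members lie around the dashed line, and the intervals of Stab1 and Lyve1 are the 2 that do not reach 0.

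The scavenger and endocytic genes of the sinusoid held the most abundant member and also the pair with the smallest p-values. TPM corrects for length, so levels can be compared between genes. Clec4g, encoding the sinusoidal C-type lectin LSECtin (chromosome 8, 3707064 to 3720651 in mm10), was at 48.9, 53.8 and 51.0 TPM under the WT label and at 51.3, 52.6 and 48.9 under the KO label. The values of the labels were interleaved, with a difference of -0.01 and an interval from -0.26 to +0.25. Of the 10 genes in this role 8 had a difference above 0, and the median was +0.07 (-0.05 after median-ratio scaling).

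Stab1 and Stab2 encode stabilin-1 and stabilin-2, large scavenger receptors that clear hyaluronan, modified lipoproteins and other ligands from sinusoidal blood. Stab1 (chromosome 14, 31139013 to 31168641) was at 5.52, 5.76 and 6.03 TPM under the WT label and at 7.08, 7.93 and 7.24 under the KO label. All 3 KO values were above all 3 WT values, with means of 5.77 ± 0.255 and 7.42 ± 0.456 TPM (SD, n = 3 each). The difference was +0.31 with a standard error of 0.12 and an interval from +0.04 to +0.59 (limma, adjusted p = 0.993), and +0.20 after median-ratio scaling. Its paralog Stab2 (chromosome 10, 86841198 to 87008025) was at 9.86, 9.95 and 8.91 TPM against 8.90, 11.2 and 10.4. These ranges overlapped, and the difference was +0.07 with an interval from -0.23 to +0.38.

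Lyve1 (chromosome 7, 110850607 to 110863239) encodes a hyaluronan receptor found on sinusoidal and lymphatic endothelium. It was at 5.50, 4.95 and 4.07 TPM under the WT label and at 7.02, 6.56 and 6.07 under the KO label, and the ranges did not overlap. Mean levels of 4.84 ± 0.723 and 6.55 ± 0.471 TPM (SD, n = 3 each) gave a difference of +0.38 with a standard error of 0.14 and an interval from +0.04 to +0.71 (limma, adjusted p = 0.993), and +0.27 after median-ratio scaling. Leaving out 1 library at a time, Stab1 ranged from +0.27 to +0.34 with unadjusted limma p from 0.0445 to 0.11, and Lyve1 from +0.28 to +0.46 with p from 0.0225 to 0.0967. Of 3 markers of lymphatic endothelium, the chemokine gene Ccl21a was at 1.33, 0.657 and 0.839 TPM against 2.18, 2.17 and 1.57, also without overlap (against 8.23% of all genes in that direction). Under the WT label only replicate 1 reached 1 TPM, so Ccl21a passed the filter through the label where it is high. Its lack of overlap was therefore in part built into its selection. It also has near-identical copies in the mouse genome that make its reads uncertain. The other lymphatic markers, Pdpn and Mmrn1, stayed at or below 0.264 TPM in every library. The summed level of the 3 was 0.864 to 1.62 TPM under the WT label and 1.82 to 2.56 under the KO label, and the part of lymphatic vessels in the Lyve1 values was not tested.

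The other members of this role overlapped between labels. Mrc1, the mannose receptor that sinusoidal endothelium shares with Kupffer cells, the resident macrophages of the liver, was at 13.1, 12.8 and 12.4 TPM against 12.6, 17.5 and 13.8, with KO replicate 2 standing highest. Fcgr2b, the inhibitory Fc receptor that clears immune complexes, was at 29.2, 37.3 and 30.0 TPM against 30.3, 44.1 and 26.6, again highest in KO replicate 2. Its reads may be shared with other Fc receptor genes of similar sequence. Stab1 and Fcgr2b are also expressed by macrophages, and the summed level of 10 Kupffer cell markers was 271.1 to 392.3 TPM under the WT label and 351.9 to 373.6 under the KO label. Gpr182, an atypical chemokine receptor, was at 5.55 to 9.41 TPM over the 6 libraries, and Oit3, a secreted protein of sinusoidal endothelium, at 11.4 to 15.7. Ehd3, an endocytic recycling ATPase, was at 22.0, 25.4 and 23.4 TPM against 20.7, 25.5 and 19.3. Dnase1l3, a secreted nuclease that digests DNA in circulating particles, kept within 11.2 to 12.9 TPM.

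**Figure D2:**
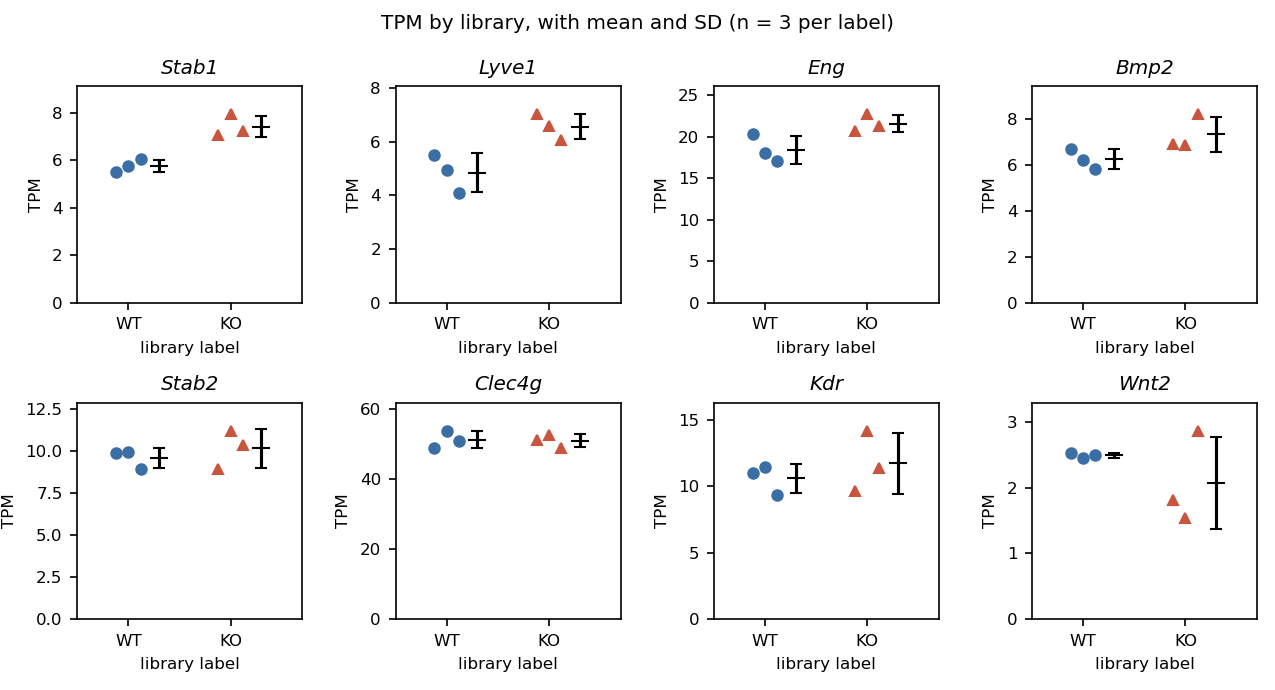
TPM (vertical axes, from 0) of 8 endothelial genes under the WT label (circles) and KO (triangles), in replicate order, with the mean and SD of each label beside them (n = 3). Stab1, Lyve1, Eng and Bmp2 do not overlap between labels, whereas Stab2, Clec4g, Kdr and Wnt2 do.

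The adhesion, junction and surface genes include the standard pan-endothelial markers. Pecam1, the adhesion molecule CD31, was at 8.71, 8.08 and 7.66 TPM under the WT label and at 9.63, 8.76 and 7.27 under the KO label, which places the highest and the lowest value under the same label. Cdh5, encoding the junction protein VE-cadherin, was at 9.19, 8.65 and 8.72 against 9.48, 11.1 and 8.19. Their differences were +0.06 (interval -0.27 to +0.38) and +0.09 (-0.23 to +0.42). Ptprb, the phosphatase VE-PTP that restrains TIE2, was at 8.73 ± 0.913 and 8.90 ± 0.596 TPM (SD, n = 3 each). Robo4, a guidance receptor that stabilizes vessels, kept within 2.64 to 2.995 TPM over all 6 libraries.

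Eng, encoding the BMP9 and BMP10 co-receptor endoglin (chromosome 2, 32646595 to 32682669), was at 20.3, 18.0 and 17.0 TPM under the WT label and at 20.7, 22.7 and 21.2 under the KO label. Of its exon bases 1.51% lie opposite Fpgs (mean 64.4 TPM), and the sources used here do not say whether counting used strand. The lowest KO value was just above the highest WT value, and the difference was +0.22 with an interval from -0.06 to +0.50, or +0.10 after median-ratio scaling (limma, adjusted p = 0.993). Ramp2, which pairs with the calcitonin-receptor-like receptor to sense adrenomedullin, was at 6.18, 9.06 and 10.73 TPM against 12.3, 12.5 and 10.74. The ranges thus nearly touched, and 33.4% of its annotated exon bases also lie in exons of Vps25 on the same strand, a gene at a mean of 78.4 TPM, so its values are uncertain. Calcrl, the receptor partner of Ramp2, was at 4.91, 6.52 and 5.86 TPM against 5.89, 6.74 and 4.50.

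Esam, a tight junction adhesion molecule, varied most within the WT label, at 8.22, 5.76 and 4.21 TPM against 5.57, 7.55 and 6.28. Emcn, the sialomucin endomucin, was at 2.20, 2.67 and 2.28 against 1.61, 3.46 and 2.65. Aqp1, a water channel of endothelium that red blood cells and bile duct cells also carry, was the second most abundant member at 38.7, 45.5 and 36.5 TPM against 43.1, 46.5 and 33.03. All 3 genes overlapped between labels. The summed level of 5 red blood cell markers was 633.6, 780.6 and 1048 TPM under the WT label and 797.6, 1830 and 913.2 under the KO label. It was highest in KO replicate 2, where Aqp1 was also highest. It was next highest in WT replicate 3 and KO replicate 3, where Aqp1 had its lowest values, 36.5 and 33.03 TPM. The part of blood in the Aqp1 values was not tested. Of the 9 genes in this role 8 had a difference above 0, with a median of +0.06 that median-ratio scaling turned to -0.04.

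**Figure D3:**
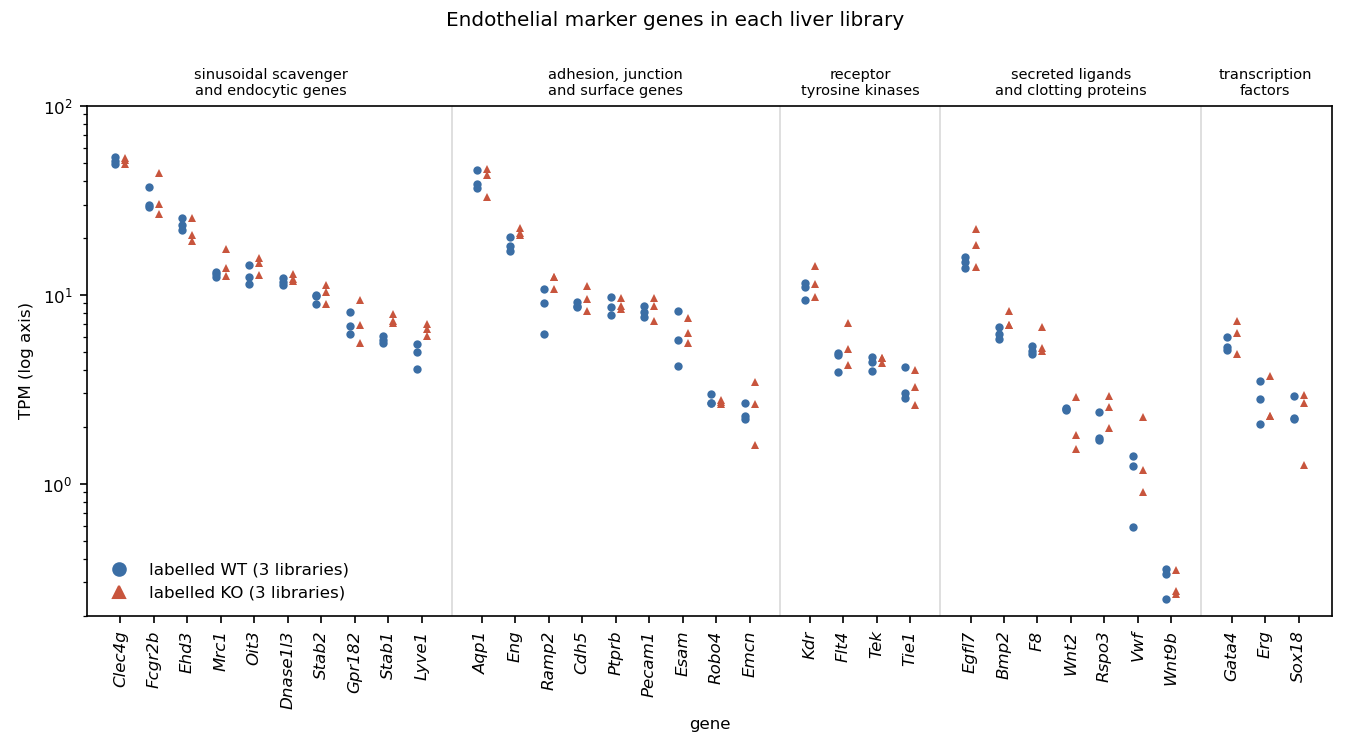
TPM of all 33 endothelial markers in each library (vertical axis, log scale), with genes grouped by role and ordered by mean (horizontal axis). Circles are libraries labelled WT and triangles libraries labelled KO. Levels run from about 51 TPM for Clec4g to about 0.3 for Wnt9b, and the labels are interleaved for most genes.

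Promoter windows are shown for 4 members that differ in pattern: Stab1 and Eng, whose labels did not overlap, and Stab2 and Clec4g, whose labels did. They come from RefSeq on GRCm38.p6, run 5′ to 3′ on the gene's strand from 250 bases before the start to 50 after it, and carry in capitals each match, on either strand, to AGGAAG or CGGAAG, core letters bound by ETS factors, the family to which the member Erg belongs.
Stab1 (chr14:31168592-31168891, minus strand): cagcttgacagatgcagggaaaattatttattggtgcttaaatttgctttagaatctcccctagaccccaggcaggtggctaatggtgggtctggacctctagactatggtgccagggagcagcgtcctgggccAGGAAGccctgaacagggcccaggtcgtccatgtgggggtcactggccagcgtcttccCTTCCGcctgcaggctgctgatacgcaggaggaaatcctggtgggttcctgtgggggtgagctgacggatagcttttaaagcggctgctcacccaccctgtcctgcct
Stab2 (chr10:87007893-87008192, minus strand): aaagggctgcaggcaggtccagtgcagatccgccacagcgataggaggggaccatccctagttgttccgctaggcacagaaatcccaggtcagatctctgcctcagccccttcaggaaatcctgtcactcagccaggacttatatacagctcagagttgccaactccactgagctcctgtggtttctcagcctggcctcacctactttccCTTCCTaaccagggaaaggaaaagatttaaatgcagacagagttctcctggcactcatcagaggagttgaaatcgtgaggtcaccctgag
Eng (chr2:32646345-32646644, plus strand): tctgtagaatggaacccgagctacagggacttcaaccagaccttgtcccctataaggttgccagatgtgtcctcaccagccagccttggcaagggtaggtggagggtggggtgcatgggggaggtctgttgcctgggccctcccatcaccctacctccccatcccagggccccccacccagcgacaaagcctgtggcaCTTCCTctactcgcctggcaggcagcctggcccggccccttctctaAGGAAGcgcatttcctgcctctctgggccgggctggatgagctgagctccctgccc
Clec4g (chr8:3720602-3720901, minus strand): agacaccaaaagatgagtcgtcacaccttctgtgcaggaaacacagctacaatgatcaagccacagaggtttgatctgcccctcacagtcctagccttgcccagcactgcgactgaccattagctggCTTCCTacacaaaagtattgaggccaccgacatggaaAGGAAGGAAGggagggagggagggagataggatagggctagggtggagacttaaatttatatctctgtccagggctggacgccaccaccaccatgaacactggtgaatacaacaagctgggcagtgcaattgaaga
Stab1 held 2 matches, Stab2 1, Eng 2 and Clec4g 3, a pair of which overlap by 2 bases. Such letters are common: 46.5% of all 32851 RefSeq promoter windows and 13 of 23 windows of the 19 members matched there hold at least 1. The hypoxia response core, searched as ACGTG or GCGTG on both strands, was in none of these 4 windows, in 5 of the 23 member windows and in 43.8% of all windows. The 5 belong to Egfl7, Ehd3, Emcn, Erg and Kdr. A match is a description of letters in this window and was not linked to binding or to any change.

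The receptor tyrosine kinases, which receive vascular growth factors and angiopoietins, all overlapped between labels. Kdr, encoding VEGFR2, the main signalling receptor for VEGF-A, was at 11.01, 11.5 and 9.35 TPM under the WT label and at 9.68, 14.2 and 11.4 under the KO label, a difference of +0.12 with an interval from -0.26 to +0.51. Flt4, the VEGF-C receptor VEGFR3, was at 4.81, 4.91 and 3.90 against 5.16, 7.09 and 4.23. For both, KO replicate 2 was the highest library and the ranges overlapped. Tek, the angiopoietin receptor TIE2, was at 3.92, 4.38 and 4.69 TPM against 4.64, 4.64 and 4.35, with a difference of +0.06 (interval -0.24 to +0.35). Tie1, its co-receptor, was at 2.84, 4.13 and 3.03 against 3.25, 4.002 and 2.60.

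The ligands for these receptors did not pass the test either. Of 8 VEGF ligands and other VEGF receptors, 6 were tested, 0 were called and 5 lay above 0, with a median of +0.07 and 0 at an unadjusted limma p below 0.05. Vegfa, the main ligand of Kdr and a known target of hypoxia-inducible factors, was at 28.4, 41.3 and 31.1 TPM against 27.5, 49.1 and 43.6. The co-receptor gene Nrp1 was at 36.9, 28.5 and 24.0 against 25.7, 36.0 and 47.3, the decoy and signalling receptor gene Flt1 at 2.23 ± 0.0988 and 2.49 ± 0.163 (SD, n = 3 each), and Nrp2 at 3.82 ± 1.40 and 3.63 ± 1.58. The 4 angiopoietin ligand genes were all below the filter. Among them Angpt2, the ligand associated with vessel remodelling, was at 0.3, 0.171 and 0.261 TPM under the WT label and at 0.443, 0.826 and 0.590 under the KO label, low values that were not tested.

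Secreted endothelial signals to hepatocytes were low, and their directions were mixed. Wnt2, a Wnt ligand of central vein and neighbouring sinusoidal endothelium (chromosome 6, 17988940 to 18030585), was at 2.53, 2.45 and 2.49 TPM under the WT label and at 1.82, 1.53 and 2.87 under the KO label. KO replicates 1 and 2 were below all WT libraries and KO replicate 3 was above them, so the ranges overlapped (difference -0.21, interval -0.64 to +0.23). Wnt9b, the other main Wnt ligand of the central vein, was between 0.244 and 0.353 TPM over all 6 libraries and was not tested. Rspo3, encoding R-spondin 3, which strengthens Wnt signals at the central vein, was at 2.39, 1.697 and 1.74 TPM against 2.91, 1.98 and 2.55, an overlap with a difference of +0.24 (interval -0.16 to +0.65).

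On the receiving side, 17 of 19 Wnt and R-spondin receptors and feedback genes were tested and 0 were called (0 at an unadjusted limma p below 0.05), with 8 above 0, 9 below and a median of -0.01. Lgr5, an R-spondin receptor of pericentral hepatocytes, was at 1.69, 1.81 and 1.84 TPM under the WT label and at 1.09, 1.42 and 1.17 under the KO label, without overlap (limma, adjusted p = 0.993). Glul, glutamine synthetase of the innermost pericentral hepatocytes, was at 519, 445 and 426 TPM against 421, 422 and 329, also without overlap though KO replicate 2 and WT replicate 3 nearly met. These 2 of 17 tested genes lay wholly below under the KO label, against 0.857% of all genes. With the replicate block the unadjusted limma p of Glul was 0.0434. It was the 1 of 17 below 0.05 in that fit (5.88%), near the 6.18% of all genes. In the other direction, the R-spondin receptor gene Lgr4 was at 12.01 ± 0.657 and 14.4 ± 1.72 TPM, and the Wnt co-receptor gene Lrp6 at 12.3 ± 2.04 and 15.2 ± 2.53 (SD, n = 3 each). Of the 3 other pericentral endothelial genes, Thbd was at 1.86 ± 0.716 and 2.24 ± 0.310 TPM, Cdh13 at 1.51 ± 0.296 and 1.77 ± 0.842, and Kit at 1.92 ± 0.195 and 1.97 ± 0.327.

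Bmp2 (chromosome 2, 133552159 to 133562885), which sinusoidal endothelium secretes and which induces hepcidin in hepatocytes, was at 6.72, 6.22 and 5.85 TPM under the WT label and at 6.90, 6.90 and 8.22 under the KO label. The ranges did not overlap, with means of 6.26 ± 0.439 and 7.34 ± 0.764 TPM (SD, n = 3 each). The difference was +0.20 with an interval from -0.10 to +0.50 and +0.09 after median-ratio scaling (limma, adjusted p = 0.993). Of 21 related BMP ligands, receptors and feedback genes, 19 were tested and 0 were called (0 at an unadjusted limma p below 0.05), with 14 above 0 and a median of +0.05. Acvr1, a type I BMP receptor, was at 4.71, 3.93 and 5.34 TPM against 5.56, 5.71 and 6.61, without overlap. It was the 1 of 19 that lay wholly above under the KO label, against 8.23% of all genes. Smad1, a transducer of BMP signals, was at 4.17 ± 0.515 and 4.95 ± 0.240 TPM, the receptor gene Bmpr1a at 6.35 ± 0.769 and 7.41 ± 0.405, and the BMP target Id1 at 4.75 ± 1.72 and 3.40 ± 1.76 (SD, n = 3 each). Id1 was lower in the KO library of all 3 same-numbered pairs, and with the replicate block its unadjusted limma p was 0.0239 (adjusted p = 0.724). In that fit Id1 was the 1 of 19 genes of this list below 0.05 (5.26%, against 6.18% of all genes). Bmp6, the other endothelial inducer of hepcidin, was at 1.72, 2.17 and 1.32 TPM against 1.30, 2.65 and 1.21. The hepcidin gene Hamp was at 2262, 3184 and 941 TPM against 788, 3576 and 1120, a far wider spread within each label than that of Bmp2.

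The other secreted members overlapped. Egfl7, a matrix-bound vessel guidance factor and host gene of miR-126, was at 15.8, 14.9 and 13.9 TPM under the WT label and at 22.3, 18.4 and 14.0 under the KO label, with KO replicate 1 highest. Of its exon bases 1.79% lie opposite Agpat2, a gene at a mean of 153 TPM. F8, coagulation factor VIII, which in liver is made by sinusoidal endothelium, was at 5.33, 4.86 and 5.02 against 5.04, 6.78 and 5.21. Vwf, encoding von Willebrand factor of larger vessels and platelets, was at 1.40, 1.24 and 0.591 TPM against 1.18, 0.902 and 2.26. The summed level of 5 platelet markers was 1.61 to 2.01 TPM under the WT label and 2.34 to 5.81 under the KO label, highest in KO replicate 1, while Vwf was highest in KO replicate 3, and the part of platelets was not tested. Of the 6 tested genes in this role 5 had a difference above 0, with the highest median of the 5 roles, +0.21 (+0.11 after median-ratio scaling).

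The 3 transcription factors overlapped between labels. Gata4, which specifies sinusoidal identity and is also expressed in stellate cells, was at 6.001, 5.30 and 5.08 TPM under the WT label and at 4.85, 6.29 and 7.24 under the KO label. Erg, an ETS factor that maintains endothelial identity, was at 2.07, 3.51 and 2.81 against 2.27, 3.73 and 2.29. Sox18, a SOXF factor of vascular development, was at 2.23, 2.92 and 2.20 against 2.66, 2.96 and 1.26, where KO replicate 3 was the lowest library. The median difference of the 3 was -0.02. Of 14 other endothelial transcription factor genes, 8 were tested and 0 were called (0 at an unadjusted limma p below 0.05), 6 above 0 with a median of +0.11. Those with the smallest p were the ETS genes Ets2 (7.77 ± 1.10 and 9.14 ± 1.74 TPM), Fli1 (1.07 ± 0.178 and 1.30 ± 0.0393) and Ets1 (6.23 ± 0.800 and 6.85 ± 1.06), and the venous factor gene Nr2f2 (13.1 ± 4.23 and 15.7 ± 3.97; SD, n = 3 each). With the replicate block Nr2f2 had an unadjusted limma p of 0.0447, the 1 of 8 below 0.05 (12.5%, against 6.18% of all genes).

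Many members shared the same highest library. KO replicate 2 was the highest library for 18 of 32 members, against 29.1% of all genes, and its median deviation from the 6-library mean was +0.20 on the log2 scale for the members and +0.09 for all genes. WT replicate 3 was the lowest library for 11 of 32 members, against 41.6% of all genes, with median deviations of -0.11 and -0.16. KO replicates 1 and 3 lay at -0.01 and -0.02 for the members. Without KO replicate 2 the median difference of the members was +0.01, with 18 of 32 above 0. The median of all genes was then +0.07, with 7419 of 11178 above 0. Stab1, Lyve1, Eng, Ramp2 and Bmp2 had every KO value above every WT value, so leaving out KO replicate 2 could not make them overlap.

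**Figure D4:**
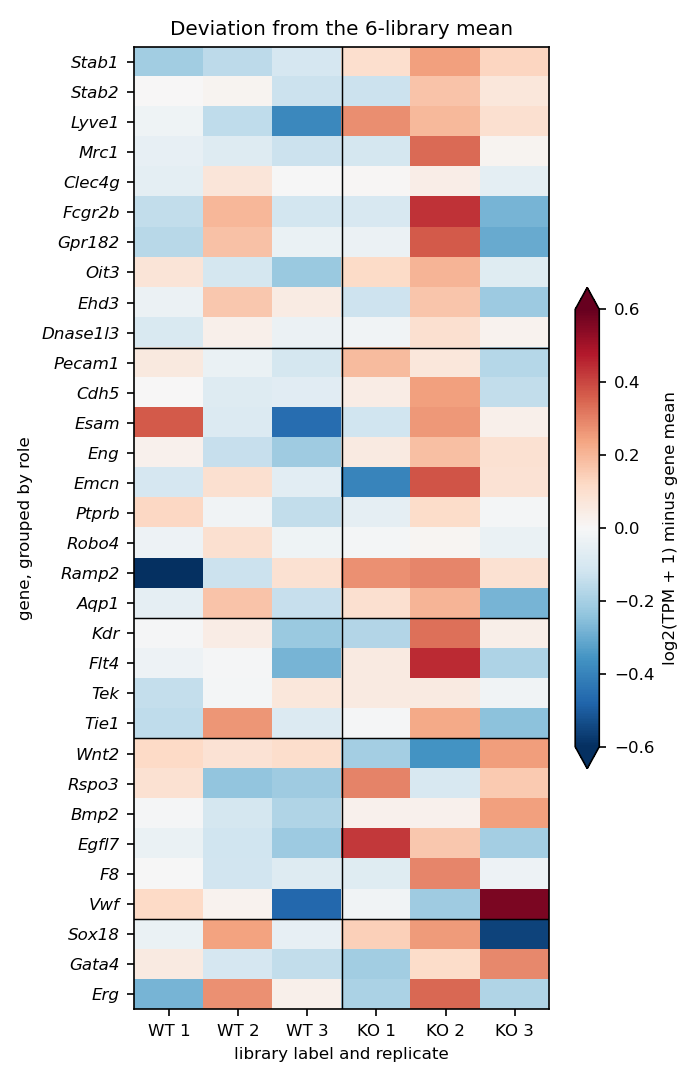
Deviation of each tested endothelial marker from its mean over the 6 libraries (colour, log2(TPM + 1)), with genes grouped by role in rows and libraries in columns. KO replicate 2 is the warmest column, highest for 18 of 32 members, and WT replicate 3 is among the coolest, lowest for 11.

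Genes of capillarization and inflammation in the endothelium also gave 0 calls. Of 10 capillarization and basement membrane genes 9 were tested, with 6 above 0, a median of +0.13 and 0 at an unadjusted limma p below 0.05. Plvap, the diaphragm protein that marks capillarized endothelium, was at 23.3, 21.3 and 16.7 TPM under the WT label and at 19.4, 21.9 and 16.8 under the KO label, and Cd34 was between 0.511 and 1.002 TPM and not tested. The collagen IV gene Col4a1 was at 5.87, 5.87 and 5.84 TPM against 6.02, 6.58 and 6.72, a small difference of +0.12 without overlap, +0.01 after median-ratio scaling. The nidogen genes pointed apart, Nid1 at 3.62 ± 0.245 and 4.73 ± 1.06 TPM and Nid2 at 1.80 ± 0.418 and 1.32 ± 0.131, and the perlecan gene Hspg2 was at 2.45 ± 0.449 and 3.56 ± 1.44 (SD, n = 3 each). Nid1 and Hspg2 overlapped between labels, whereas the KO values of Nid2 all lay below its WT values. Thus 1 of the 9 lay wholly above (8.23% of all genes) and 1 wholly below (0.857%). Of 9 leukocyte adhesion and tight junction genes 7 were tested, 6 above 0 with a median of +0.12. The P-selectin gene Selp was at 0.788 ± 0.335 and 1.26 ± 0.191 TPM, Vcam1 at 7.58 ± 2.26 and 8.58 ± 1.01, Jam2 at 3.62 ± 0.509 and 4.10 ± 0.466, and Icam1 at 3.09 ± 0.976 and 3.40 ± 0.630.

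Lists of flow response, Notch and zonal endothelial genes gave 0 calls and 0 genes at an unadjusted limma p below 0.05, or 1, Msr1 (0.0466), with the replicate block. In that fit 6.18% of all genes were below 0.05. Of 8 flow response and vasoactive genes 5 were tested, with 4 above 0 and a median of +0.20. The flow-induced factor gene Klf2 was at 8.22, 6.83 and 3.93 TPM under the WT label and at 5.92, 5.99 and 5.99 under the KO label, and the endothelin receptor gene Ednrb at 3.44 ± 0.373 and 4.09 ± 0.336. Of 13 Notch pathway genes 5 were tested, with 3 above 0 and a median of +0.04, Notch1 itself being at 2.01 ± 0.128 and 1.71 ± 0.574 TPM. Of 7 periportal sinusoidal genes 6 were tested, with 5 above 0 and a median of +0.12. Efnb2, the arterial and periportal ligand ephrin-B2, was at 0.823, 0.818 and 0.788 TPM against 1.23, 1.36 and 1.11. It reached 1 TPM only in the libraries labelled KO and so passed the filter through the label where it is high. Its lack of overlap (against 8.23% of all genes in that direction) was therefore built into its selection. The scavenger receptor gene Msr1, also a macrophage gene, was at 11.2, 9.24 and 7.19 against 8.08, 6.04 and 6.76.

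A second set of endothelial genes, none of them a member, was also measured. Of 22 other pan-endothelial genes 21 were tested and 0 were called (0 at an unadjusted limma p below 0.05), with 15 above 0, a median of +0.11 and 3 with all KO values above all WT values (Adgrf5, Clec14a and She), against 8.23% of all genes. With the replicate block Adgrf5 had an unadjusted limma p of 0.0375, the 1 of 21 below 0.05 (4.76%, against 6.18% of all genes). Adgrf5, an adhesion G-protein-coupled receptor, was at 8.502, 9.22 and 8.36 TPM under the WT label and at 9.94, 13.6 and 10.1 under the KO label, without overlap. Clec14a was at 4.56 ± 0.239 and 5.23 ± 0.286 TPM, Ecscr at 1.91 ± 0.791 and 2.69 ± 0.353, and Igfbp7 at 71.3 ± 9.80 and 80.5 ± 8.45 (SD, n = 3 each). When libraries were scaled so that this set had the same mean level in each, the median difference of the members was -0.002 and that of all genes +0.01, Stab1 was at +0.23 and Lyve1 at +0.29. On that scale 0 members lay wholly above under the KO label, against 1.39% of all genes, and 1, Ehd3, lay wholly below (3.12%, against 1.46%).

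Markers of other liver cells gave the following values beside the members. Kupffer cell markers had 9 of 10 above 0 with a median of +0.14, and stellate cell markers 10 of 10 with a median of +0.09, against +0.08 for the endothelial members, and median-ratio scaling brought these medians to +0.02, -0.01 and -0.03. Of 9 hepatocyte markers 8 were above 0, with a median of +0.10. The smooth muscle genes Tagln and Acta2 did not overlap between labels, at 3.32, 4.87 and 3.97 against 5.36, 6.09 and 6.85 TPM for Tagln and 0.823, 1.28 and 1.72 against 1.95, 2.14 and 2.59 for Acta2. Of 5 smooth muscle markers 3 were tested, all above 0 with a median of +0.50, and 2 did not overlap, against 8.23% of all genes in that direction. Of 6 cholangiocyte markers 2 were tested, Sox9 at 0.953 ± 0.3003 and 0.980 ± 0.187 TPM and Spp1, which macrophages also make, at 28.4 ± 5.69 and 43.4 ± 10.7 (SD, n = 3 each). The 5 lymphocyte markers summed to at most 2.61 TPM and the 3 mesothelial markers to at most 0.585 in any library. None of these marker genes was called in limma, with 4 at an unadjusted p below 0.05, all higher under the KO label. They were 2 of 3 tested smooth muscle markers (Tagln and Acta2), 1 of 2 cholangiocyte markers (Spp1) and 1 of 1 lymphatic marker (Ccl21a). There were 0 among 10 Kupffer cell, 10 stellate cell, 9 hepatocyte, 5 red blood cell and 1 platelet markers tested. The share of all genes in that direction was 2.76%. Ccl21a passed the filter through the label where it is high, so its p-value was in part built into its selection.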

How the data were processed

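Liver RNA was compared between 3 libraries labelled WT and 3 labelled KO. The authors deposited 1 table of TPM with 3 decimals for 54600 rows, and each column sums to 1000000. The submitters' processing notes name mm10 and, among tools, HISAT2, fastp, DESeq2, limma and featureCounts. Their versions, roles and strand setting are not given in the sources used here. TPM keeps no depth, so depth is unknown, no counting interval is given and no count model was used. Of 54323 Ensembl identifiers, 51492 were named from GENCODE M21, which gave the coordinates (GRCm38, the build of mm10). Identifiers of 5 members (Cdh5, F8, Fcgr2b, Gata4 and Ptprb) are joined to an assembled locus.

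The 11440 genes that reached 1 TPM in 3 or more libraries entered a two-sided limma fit (version 3.58.1, R 4.3.3) of log2(TPM + 1) with a trended variance, and p-values were adjusted by Benjamini-Hochberg over all of them. Fold changes on this scale understate changes of low genes. The step was tested on simulated data. Also run were pseudocounts of 0.1 and 5, a 5 TPM filter and none, median-ratio scaling, quantile normalization, no variance trend, the replicate number as a block, that block with median-ratio scaling, and leaving out each library. Scaling to other pan-endothelial genes was added after seeing the data.

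The labels number the libraries 1 to 3 under each label without saying that numbers pair them. Deviations of same-numbered libraries from their label means were correlated at 0.157, 0.408 and 0.381, so the numbers may pair them, as inferred from the data only. The main fit does not use this pairing, and the fit with the replicate block does. Printed differences, intervals and p-values are from the main fit, without the block, unless the block is named. For single genes of the related lists, p-values with the block are printed only where they were below 0.05. The members and lists were chosen with earlier results of these data known. All members are described. From each related list, up to 4 tested genes with the smallest p are given, and Angpt2, Plvap, Cd34, Klf2, Calcrl, Bmp6, Hamp, Pdpn and Mmrn1 were added as partners or known markers after their values were seen.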

Additional observations from a re-analysis of the deposited data

How the results depend on the processing

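In 16 alternatives 0 members were called, and the smallest adjusted p of any member was 0.724. The replicate block, with a median difference of 0.0837 and 5 members without overlap, changed no call among the members. Over all genes tested, calls went from 1 to 0. Genes at an unadjusted limma p below 0.05 went from 360 to 707 of all genes (6.18%) and stayed at 2 among the members. Of 502 member differences recomputed, 66 changed sign, in 18 members, while 14 members kept their sign throughout, 12 of them positive. TPM keeps no depth, so how depth limits the low members, such as Wnt9b and Vwf, is unknown.

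Under median-ratio scaling, alone or with the replicate block, 1 member did not overlap (3.12%, against 7.05% of all genes) and the median was -0.0285, with Stab2 at -0.0395, Fcgr2b -0.0819, Gpr182 -0.0887, Dnase1l3 -0.0523, Pecam1 -0.0553, Cdh5 -0.0175, Emcn -0.0418, Ptprb -0.083, Aqp1 -0.108 and Tek -0.0445. Under quantile normalization 2 did not overlap (6.25%, against 6.79%) and the median was -0.0293, with the same genes at -0.0405, -0.0574, -0.093, -0.0436, -0.0552, -0.0182, -0.0487, -0.0856, -0.0716 and -0.0606, and Esam at -0.00263. Scaled to other pan-endothelial genes, 1 did not overlap (3.12%, against 2.85%), with Stab2 at -0.0127, Fcgr2b -0.0468, Gpr182 -0.0639, Dnase1l3 -0.0232, Pecam1 -0.03, Emcn -0.0392, Ptprb -0.0576, Aqp1 -0.0729 and Tek -0.0274. Median-ratio scaling multiplies every gene of a library by 1 factor, which alone can turn differences this close to 0.

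Leaving out 1 library at a time gave 5 to 11 members without overlap, 8 without WT replicate 1 (against 24.6% of all genes) or KO replicate 1 (19.8%) and 11 (34.4%) without KO replicate 3 (22.7%). Ranges that crossed 0 were -0.0401 to 0.0276 for Clec4g, -0.168 to 0.187 for Fcgr2b, -0.157 to 0.178 for Gpr182, -0.0254 to 0.156 for Pecam1, -0.00485 to 0.192 for Cdh5, -0.0877 to 0.324 for Esam, -0.132 to 0.257 for Emcn, -0.0383 to 0.0967 for Ptprb, -0.0473 to 0.0166 for Robo4, -0.0858 to 0.155 for Aqp1, -0.01 to 0.244 for Kdr, -0.137 to 0.109 for Tie1, -0.0059 to 0.383 for Vwf, -0.256 to 0.15 for Sox18 and -0.194 to 0.116 for Erg.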

Other observations

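Ratios between members of 1 library cancel its scaling and, where both genes come from the same cells, the amount of those cells. Of 6 such ratios, chosen after the values were seen and not tested, those of Stab1 and of Lyve1 to Stab2 did not overlap between labels. Stab1 to Stab2 was 0.560, 0.579 and 0.676 in the libraries labelled WT and 0.795, 0.709 and 0.699 in those labelled KO. Lyve1 to Stab2 was 0.558, 0.497 and 0.456 against 0.788, 0.586 and 0.587. Stab1 and Lyve1 had already been seen not to overlap, so these ratios restate their values and add no separate support. Macrophages also express Stab1 and lymphatic endothelium Lyve1, so the amount of cells need not cancel. The share of other gene pairs whose ratios do not overlap was not computed. The ratios of Tie1 to Tek, Flt4 to Kdr, Clec4g to Pecam1 and Wnt2 to Wnt9b overlapped, with WT means of 0.772, 0.427, 6.31 and 8.26 and KO means of 0.720, 0.468, 6.02 and 6.96.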
